A study of Mus musculus with 6 samples.

Results

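A set of 42 genes of mitosis and the spindle was followed in mouse skin after treatment with osimertinib, a lung cancer drug that inhibits the epidermal growth factor receptor. The set was taken by gene name from a table of 33308 genes, and all 42 names matched 1 row each. The study measured polyadenylated RNA in whole skin in 3 samples from untreated mice (controls 1, 2 and 3) and 3 samples taken after 42 days of osimertinib (osimertinib 1, 2 and 3), with osimertinib-induced skin problems as its stated subject. The labels give no strain, age, sex or dose and no vehicle for the controls, and do not tell whether each sample is a different animal. The p-values therefore measure only how far these samples spread, and that spread may be technical.

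Mitosis begins when cyclin B and CDK1 become active, after which chromosomes condense, the spindle attaches to them at kinetochores, and a checkpoint holds the anaphase-promoting complex back until every kinetochore is attached. The genes of these steps are transcribed mainly in the G2 phase and mitosis, under FOXM1 and the MuvB complexes, so their RNA in a tissue follows the dividing cells in it. In skin those cells lie mostly in the basal epidermis and, while hair grows, in the matrix of the hair bulb.

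Most of the set was higher in treated skin than in controls 1 and 2, while control 3 was close to the treated samples. The 42 genes together made up 0.0652% of all counts in control 1, 0.0546% in control 2 and 0.149% in control 3. Their share was 0.124% in osimertinib 1, 0.186% in osimertinib 2 and 0.145% in osimertinib 3. In 39 of 42 genes all 3 treated samples lay above controls 1 and 2, against 19.3% of all genes tested. In 10 of 42 all 3 lay above control 3, for which the share over all genes was not computed. By edgeR's quasi-likelihood test, the log2 fold change was above 0 in 39 of 41 tested genes, and its median was 0.81 against −0.05 over all 13498 genes tested. None passed an adjusted p of 0.05, a level that 0.00741% of all genes reached, which was 1 gene, Gm10774, lower in treated skin (named because it is the only one). Because bulk skin was measured, more dividing cells and more RNA of these genes per dividing cell cannot be told apart.

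The promoters of genes of this set that lie in the RefSeq table (34 of 42, build GRCm38.p6) are shown because these genes share sequence elements that the choice of genes did not use. The cell cycle genes homology region, or CHR, is the element through which MuvB complexes bind G2 and mitosis genes, and the CCAAT box binds NF-Y. Over 300 bases from 250 before to 50 after the transcription start, and on both strands, the CHR letters TTTGAA or TTCGAA were found in 25 of 34 promoters, against 21.7% of 27025 genes in that table, a gene being counted where any of its windows held the letters. CCAAT was found in 25 of 34, against 41.1% of all genes, and both elements together in 22 of 34, against 8.61%. A pair of CCAAT boxes of the same orientation whose starts lie 31 to 35 bases apart was found in 9 of 34, against 1.07% of all genes. In the stretches below, written 5′ to 3′ along the gene, capitals mark CCAAT and CHR letters in either orientation (ATTGG and TTCAAA are the reversed forms).
Cdk1, chr10:69352913-69353012, minus strand: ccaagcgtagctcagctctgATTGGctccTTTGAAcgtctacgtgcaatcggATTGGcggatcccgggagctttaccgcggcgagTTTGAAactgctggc
Cdc20, chr4:118437344-118437443, minus strand: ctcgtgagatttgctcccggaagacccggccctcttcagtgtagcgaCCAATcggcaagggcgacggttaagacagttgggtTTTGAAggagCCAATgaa
Ccnb2, chr9:70421543-70421654, minus strand: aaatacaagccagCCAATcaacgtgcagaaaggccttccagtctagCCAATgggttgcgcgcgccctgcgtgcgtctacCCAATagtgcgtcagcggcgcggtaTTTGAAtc
Mki67, chr7:135716439-135716579, minus strand: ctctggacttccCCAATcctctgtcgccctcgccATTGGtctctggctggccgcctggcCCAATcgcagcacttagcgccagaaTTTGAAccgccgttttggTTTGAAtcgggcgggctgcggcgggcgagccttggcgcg
Top2a, chr11:99024190-99024299, minus strand: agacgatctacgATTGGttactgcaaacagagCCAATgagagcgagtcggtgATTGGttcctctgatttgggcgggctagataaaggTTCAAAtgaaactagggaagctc
Kif11, chr19:37376282-37376381, plus strand: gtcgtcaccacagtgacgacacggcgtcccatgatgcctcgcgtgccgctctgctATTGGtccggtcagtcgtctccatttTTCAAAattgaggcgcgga
Ttk, chr9:83834614-83834703, plus strand: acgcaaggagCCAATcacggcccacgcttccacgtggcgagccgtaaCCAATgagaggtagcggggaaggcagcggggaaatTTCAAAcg
Mad2l1, chr6:66535121-66535220, plus strand: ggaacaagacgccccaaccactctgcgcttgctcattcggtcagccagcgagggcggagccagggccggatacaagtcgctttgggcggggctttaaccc

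In Cdk1 the nearer of the CHR matches starts 15 bases before the RefSeq transcription start. It lies inside the gene as the deposited table bounds it. The other CHR match starts 71 bases before the RefSeq start, outside those bounds. Reversed CCAAT boxes start 48 and 80 bases before the RefSeq start. In Ccnb2 3 CCAAT boxes start at 87, 54 and 21 bases before the start and a CHR lies just after it. Ttk is shown because it carries the same elements and hardly differed between the groups, and Mad2l1 because it differed most clearly and its 300 bases hold neither element. The RefSeq start used for Mad2l1 lies before the gene start in the deposited table, so that window ends before the latter. The median log2 fold change was 0.80 in the 24 tested genes with a CHR and 0.87 in the 9 without.

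**Figure D1:**
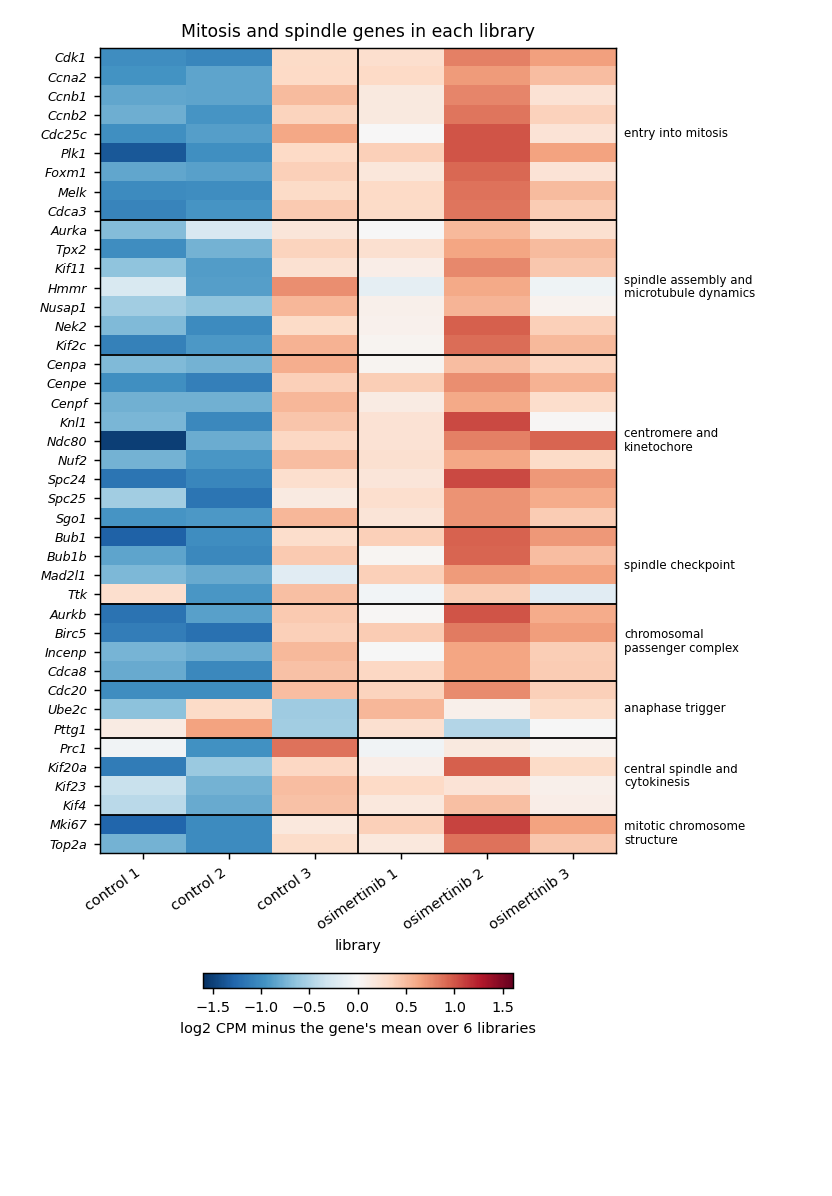
Each row is a gene, ordered by role, and each column a library; colour gives log2 CPM after subtraction of the gene mean. Controls 1 and 2 are blue in nearly all rows, control 3 and the treated samples red, and osimertinib 2 is the highest library in 34 of 42 genes.

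Levels of single genes are given below as CPM (counts scaled to a common library size) after TMM scaling. TMM applies a single factor to each library (0.806 to 1.12), so differences in tissue content between libraries remain. Fold changes are log2 of osimertinib over control with their standard error (SE, n = 3 per group). At an unadjusted p of 0.05, edgeR gave 8 of 41 tested genes of the set as higher and 0 as lower, against 7.47% and 7.18% of all genes. In 8 of 41 every treated sample lay above every control, against 11.3% of all genes tested.

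Mki67 and Top2a, broad markers of dividing cells, were the most abundant genes of the set by mean CPM in treated skin. Mki67 (chromosome 7, 135689784 to 135716361), which coats mitotic chromosomes, was at 45.5, 54.4 and 123 CPM in controls 1, 2 and 3 and at 143, 231 and 171 CPM in osimertinib samples 1, 2 and 3. Its groups did not overlap, and its log2 fold change was 1.29 ± 0.41 (adjusted p = 0.267 by edgeR). Top2a, the topoisomerase that untangles sister chromosomes, was at 47.7, 40.1 and 98.9 CPM in the controls and at 90.4, 147 and 109 CPM in treated skin. Here osimertinib 1 lay below control 3, and the log2 fold change was 0.89 ± 0.38.

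The 9 genes of entry into mitosis all had positive log2 fold changes, from 0.66 to 1.18. Cdk1 (chromosome 10, 69335146 to 69352938), the kinase that drives entry, was at 16.5, 16 and 40.5 CPM in the controls and at 39.6, 57.4 and 51.9 CPM in treated skin. Control 3 lay just above osimertinib 1, and the log2 fold change was 1.03 ± 0.40 (adjusted p = 0.319 by edgeR). Plk1, the polo kinase that promotes CDK1 activation and spindle assembly, was at 5.86, 7.56 and 18.7 CPM in the controls and at 19.5, 30.0 and 23.4 CPM in treated skin. The groups did not overlap, although control 3 and osimertinib 1 were close, and the log2 fold change was 1.18 ± 0.46. Melk, a kinase of dividing cells, was at 4.93, 4.97 and 12.2 CPM against 12.3, 18.1 and 14.1 CPM, again barely separated.
Cyclin B1 and FOXM1 had smaller fold changes. Ccnb1, cyclin B1, the partner of CDK1, was at 15.4, 15.2 and 38.7 CPM in the controls and at 30.5, 47.2 and 32.1 CPM in treated skin (0.66 ± 0.42), with control 3 above 2 of the 3 treated samples. Foxm1, which activates transcription of many genes of the set, was at 11.6, 11.3 and 27.1 CPM against 23.5, 39.2 and 24.2 CPM (0.80 ± 0.41). Ccna2, Ccnb2 and Cdca3 had log2 fold changes of 0.87, 0.82 and 0.90, and Cdc25c, the phosphatase that activates CDK1, 0.68 ± 0.52. In each of these genes controls 1 and 2 were lower than every treated sample.

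**Figure D2:**
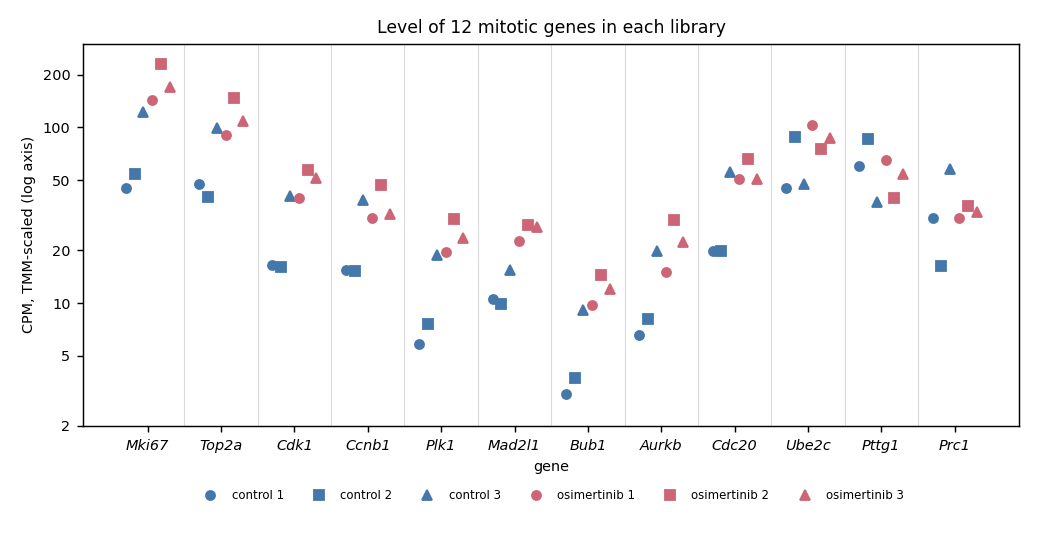
Points are CPM on a log axis for 12 genes, with controls in blue and treated samples in red and a symbol for each replicate number. In Mki67, Plk1, Mad2l1 and Bub1 all red points lie above all blue points, and in Pttg1 and Prc1 the groups overlap widely.

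Spindle assembly genes had log2 fold changes from 0.15 to 0.87, and the groups overlapped in all 7. Kif11, the kinesin that pushes spindle poles apart, was at 18.1, 15.3 and 33.5 CPM in the controls and at 30.4, 48.1 and 38.3 CPM in treated skin (0.80 ± 0.34). Tpx2, which activates Aurora A and nucleates microtubules, was at 15.0, 17.6 and 38.2 CPM against 35.6, 46.3 and 42.2 CPM (0.81 ± 0.37). Nek2, a kinase that separates centrosomes, was at 7.43, 5.99 and 14.9 CPM against 12.7, 23.4 and 15.7 CPM (0.87 ± 0.41). In these 3 genes osimertinib 1 lay below control 3, and the other treated samples above it. Kif2c, a microtubule depolymerase, and Aurka, the kinase of the spindle poles, had 0.81 ± 0.49 and 0.47 ± 0.27. Nusap1 and Hmmr, both binders of spindle microtubules, had 0.36 ± 0.36 and 0.15 ± 0.45, within or near their errors, and Hmmr was highest in control 3, at 15.1 CPM against 8.20 to 13.7 CPM in treated skin.

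All 8 tested kinetochore genes had positive log2 fold changes, among them the 4 subunits of the NDC80 complex, which holds microtubules at the kinetochore. Spc25 was at 6.57, 4.29 and 10.6 CPM in the controls and at 11.6, 15.8 and 14.6 CPM in treated skin, with separated groups (0.97 ± 0.36, adjusted p = 0.301 by edgeR). Spc24 was at 4.80, 5.24 and 13 CPM against 12.3, 22.5 and 17.4 CPM (1.18 ± 0.45). Ndc80 was at 2.77, 4.57 and 9.93 CPM against 9.25, 13.8 and 15.1 CPM (1.14 ± 0.49). In both genes osimertinib 1 was just below control 3. The fourth subunit, Nuf2, had 0.65 ± 0.41.
On the FPKM scale, which divides by gene length and so allows genes to be compared, the mean level over the 6 libraries was 4.27 for Spc24, 2.89 for Spc25, 1.83 for Nuf2 and 1.24 for Ndc80. Cenpe, the kinesin that moves chromosomes to the spindle equator, had separated groups (0.97 ± 0.42), and Cenpa, the histone that marks the centromere, did not (0.46 ± 0.39), being highest in control 3. Cenpf and Sgo1, the protector of centromeric cohesion, had 0.55 and 0.73. Knl1, the kinetochore scaffold, had a mean of 0.546 FPKM and so missed the filter of 1. It was at 2.85, 2.32 and 6.43 CPM in the controls and 5.58, 9.89 and 4.82 CPM after treatment (0.82 ± 0.49 when genes were filtered on counts instead).

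The checkpoint genes held both the clearest difference of the set and the smallest. Mad2l1 (chromosome 6, 66535390 to 66547220), the protein that inhibits CDC20 until kinetochores are attached, was at 10.6, 9.94 and 15.4 CPM in the controls and at 22.7, 27.9 and 27.3 CPM in treated skin. The groups lay well apart, and control 3 stayed with the other controls more than in any other gene with separated groups. The log2 fold change was 1.11 ± 0.23 (adjusted p = 0.173 by edgeR). DESeq2 gave it an adjusted p of 0.00062. That tool called 1 of 41 tested genes of the set, against 3.41% of all genes called as higher. The set was thus not called more often than all genes.
Bub1, a checkpoint kinase at the kinetochore, was at 3.05, 3.76 and 9.08 CPM in the controls and at 9.72, 14.4 and 12.1 CPM in treated skin, separated by little (1.19 ± 0.45). Bub1b, which encodes the checkpoint protein BUBR1, was at 12.7, 11.2 and 30.6 CPM against 23.4, 43.4 and 32.2 CPM (0.86 ± 0.44). Ttk, the kinase MPS1 that starts the checkpoint signal, was at 12.4, 5.41 and 14.4 CPM against 9.99, 13.5 and 9.03 CPM, a log2 fold change of 0.01 ± 0.39, with the groups fully mixed.

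**Figure D3:**
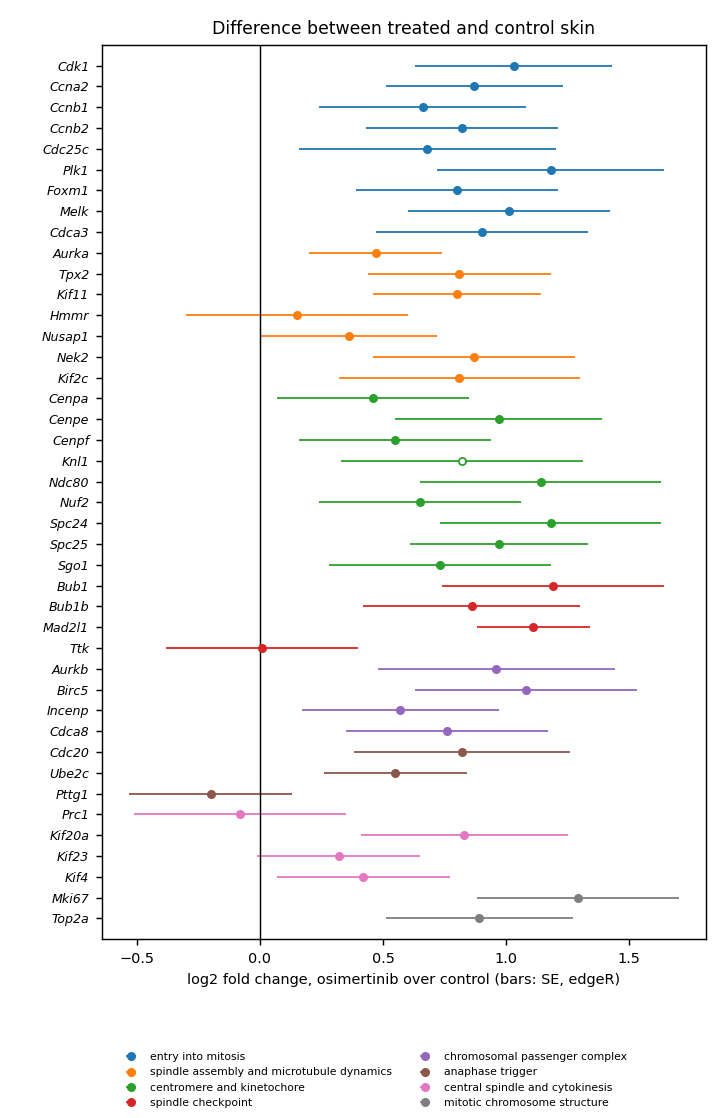
Points are log2 fold changes of osimertinib over control by edgeR and bars their SE (n = 3 per group), coloured by role; the open point is Knl1, fitted with the filter on counts. All but Pttg1 and Prc1 lie above 0, and Mad2l1 has the shortest bar of the genes above 1.

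The 4 subunits of the chromosomal passenger complex, which corrects wrong attachments and then guides cytokinesis, had log2 fold changes from 0.57 to 1.08. Birc5 (survivin) was at 13.5, 12.7 and 37.9 CPM in the controls and at 38.5, 51.4 and 46.1 CPM in treated skin, so that control 3 lay just under osimertinib 1 (1.08 ± 0.45). Aurkb, the kinase of the complex, was at 6.55, 8.13 and 19.9 CPM against 15.1, 29.9 and 22.4 CPM (0.96 ± 0.48). Cdca8 (borealin) was at 16.9, 14.5 and 40.8 CPM against 37.2, 46.0 and 39.1 CPM (0.76 ± 0.41), and Incenp, the scaffold, had 0.57 ± 0.40. Control 3 lay above at least 1 treated sample in each of the last 3.

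The 3 genes of the anaphase trigger had unlike patterns over the libraries. Cdc20, the activator of the anaphase-promoting complex, was at 19.8, 19.9 and 55.7 CPM in the controls and at 50.6, 66.5 and 51.2 CPM in treated skin (0.82 ± 0.44), the pattern of most of the set. Ube2c, the ubiquitin-conjugating enzyme of that complex, was at 45, 88.1 and 47.9 CPM against 103, 75.5 and 87.2 CPM (0.55 ± 0.29). Control 2, not control 3, was its highest control.
Pttg1 (securin), which inhibits separase until anaphase, was at 60.0, 85.6 and 37.4 CPM against 65.2, 39.5 and 54.5 CPM (−0.20 ± 0.33), with overlapping groups and control 3 lowest. In 40 of 42 genes of the set control 3 was the highest control, against 41.1% of all genes tested. The median ratio of control 3 to the mean of controls 1 and 2 was 2.47 in the set and 1.05 over all genes tested. Ube2c and Pttg1 were the 2 exceptions in the set. These 2 genes were also, with Cdc20, the most abundant of the set per length, at mean levels of 24.0, 23.6 and 20.6 FPKM. Over 22.8% of its exonic bases Ube2c is overlapped on the opposite strand by Tnnc2, a troponin of fast skeletal muscle, which was listed at 3780, 9920 and 22 FPKM in controls 1, 2 and 3 and at 7520, 2950 and 6040 FPKM in treated skin. Whether strand was used in counting is not given in the sources used here, and the part of Tnnc2 reads in the Ube2c count was not tested. Exons on the opposite strand overlap 11 genes of the set, and 10% or more of the exonic bases of 6, namely Ube2c, Ccna2, Cdc25c, Prc1, Kif20a and Kif4.

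Genes of the central spindle and cytokinesis had a median log2 fold change of 0.37, and the groups overlapped in each of the 4. Kif20a, a kinesin that brings Aurora B to the midzone, was at 8.09, 11.6 and 22.1 CPM in the controls and at 18.9, 33.9 and 21.7 CPM in treated skin (0.83 ± 0.42). Kif4, a kinesin of chromosomes and midzone, was at 10.6, 8.20 and 19.9 CPM against 16.2, 20.1 and 15.5 CPM (0.42 ± 0.35). Kif23, a motor of the midzone, was at 19.8, 15.0 and 35.7 CPM against 31.7, 29.5 and 26.7 CPM (0.32 ± 0.33), all treated samples lying between control 3 and the other controls.
Prc1, which bundles midzone microtubules, was at 30.5, 16.2 and 58.2 CPM against 30.5, 35.5 and 33.1 CPM, a log2 fold change of −0.08 ± 0.43. Control 3 was well above every treated sample there. Prc1 had the largest log2 gap below control 3 of the set, −0.82 for the treated mean, while Ube2c and Mad2l1 lay farthest above control 3, at 0.88 and 0.75.

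**Figure D4:**
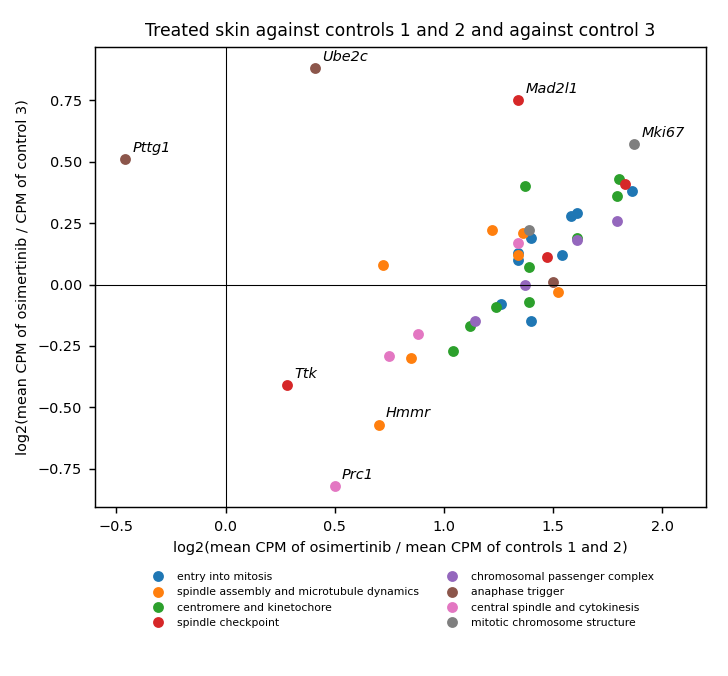
Each point is a gene of the set; the horizontal axis is log2 of the treated mean over the mean of controls 1 and 2 and the vertical axis log2 of the treated mean over control 3, both in CPM. All genes but Pttg1 lie right of 0, while on the vertical axis the set straddles 0, with Mad2l1 at 0.75 and Prc1 at −0.82.

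Control 3 also differed from the other libraries in tissue content. Genes of a list of 12 skeletal muscle markers took 0.0267% of its count, against 4.06% and 11.8% in controls 1 and 2 and 3.82% to 6.20% in treated skin. A list of 6 basal keratinocyte genes, among them Krt5 and Krt14, took 3.44% of its count, against 1.51% and 0.774% in the other controls and 0.998% to 1.72% in treated skin. Library totals ran from 54112624 to 60719064 counts, and counts of the set from 105 to 14848 per gene and library. Without control 3 the median log2 fold change of the set was 1.37, 36 of 41 genes had an unadjusted p under 0.05 as higher by edgeR, against 8.73% of all genes, and 38 of 41 had separated groups, against 19.3%. Leaving out another library lowered the number with an unadjusted p under 0.05 as higher by edgeR from 8. It was 1 without control 1 (4.14% of all genes) and 2 without control 2 (10.7% of all genes). It was 6 without osimertinib 1, 1 without osimertinib 2 and 2 without osimertinib 3 (6.28%, 4.82% and 5.99% of all genes). With the muscle score of each library as a covariate and all 6 libraries kept, the median was 1.28. In that fit 36 of 41 had an unadjusted p under 0.05 by edgeR, against 11.2% of all genes. The muscle score was −6.43 in control 3 and 0.56 to 2.57 in the other libraries. The fit with this covariate is therefore not independent of the one without control 3. No gene of the set passed an adjusted p of 0.05 in either fit. The part of muscle or of epidermal content in the level of control 3 was not tested.

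Set against the basal keratinocyte list within each library, a scale chosen after the values were seen, control 3 lay between controls 1 and 2 for both Mki67 and Cdk1. The log2 ratio of Mki67 to the mean of that list was −4.75, −3.53 and −3.94 in controls 1, 2 and 3 and −2.82, −1.26 and −1.76 in treated skin. For Cdk1 it was −6.21, −5.30 and −5.54 against −4.67, −3.27 and −3.48. On this scale the groups were separated in 36 of 41 tested genes, against 11.1% of all genes, and 32 of 41 had an unadjusted p under 0.05 by limma, against 8.65%. The median difference was 1.63 on the log2 scale, against 0.73 over all genes. The basal list itself had a median log2 fold change of −0.75, with 0 of its 6 genes positive and none called by edgeR or DESeq2. Its scores were 0.47, −0.49 and 1.1 in controls 1, 2 and 3 and 0.2, −0.67 and −0.61 in treated skin. Dividing by this list therefore lowers control 3 most and raises control 2 and osimertinib 2 and 3. The counts of separated groups and of unadjusted p on this scale follow in part from that. Ttk, Prc1, Pttg1, Ube2c and Aurka still overlapped, and no gene of the set passed adjusted p over all genes by limma.

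**Figure D5:**
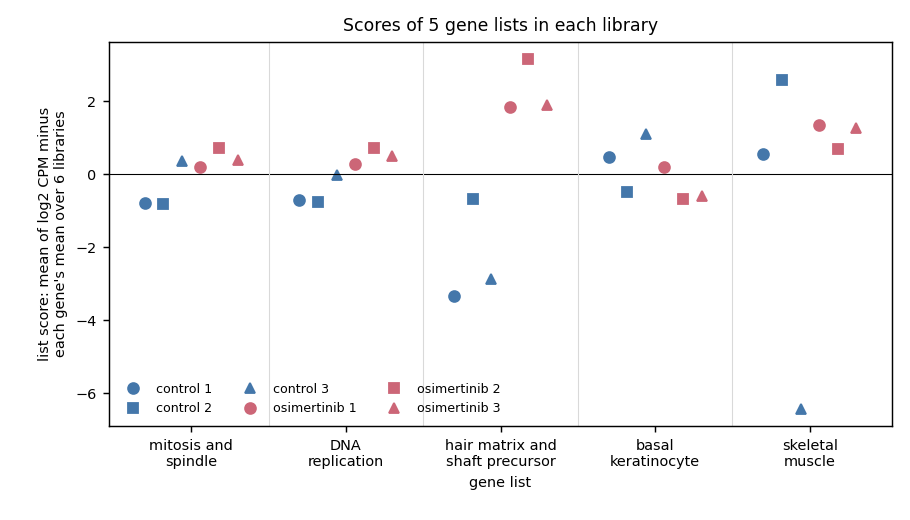
Points are list scores, the average over genes of log2 CPM centred on each gene mean, for 5 lists in each library. For the mitosis and spindle genes control 3 (0.35) lies among the treated samples (0.19 to 0.71), for DNA replication it lies below them, and for skeletal muscle it is lowest, at −6.43.

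Other genes of the same pathways were read from 9 lists of 154 genes, of which 136 were tested. No gene of these lists passed the adjusted threshold of edgeR. DESeq2 called 23 of them, all as higher, against 3.41% of all genes called as higher, and 13 of the 23 were in the DNA replication list. Of 26 tested DNA replication genes, which act in the S phase before mitosis, all had log2 fold changes above 0 (median 0.95), 18 had an unadjusted p under 0.05 by edgeR (7.47% of all genes) and 20 had separated groups (11.3% of all genes). Mcm2, a subunit of the replication helicase, was at 21.4, 20.2 and 25.2 CPM in the controls and at 44.0, 63.2 and 55.4 CPM in treated skin (1.28 ± 0.19). Ccne1, cyclin E1, was at 2.01, 2.34 and 3.91 CPM against 7.87, 12.6 and 11.6 CPM (1.96 ± 0.35). In both genes, as in Mad2l1, control 3 was the highest control, but its CPM was closer to the other controls than to any treated sample. The scores of the replication list were −0.70, −0.75 and −0.03 in the controls against 0.27, 0.72 and 0.50 in treated skin. In that score control 3 lay nearer to osimertinib 1 than to the other controls.

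In the list of DREAM, MuvB and E2F genes, 13 of 16 had a positive log2 fold change (median 0.37) and DESeq2 called 5 as higher, against 3.41% of all genes. E2f1, an activator of S phase genes, was at 7.47, 7.45 and 10.9 CPM in the controls and at 16.9, 18.5 and 21.5 CPM in treated skin (1.14 ± 0.23), and Mybl2, the B-Myb that joins MuvB to activate mitotic genes, at 3.18, 3.18 and 6.76 CPM against 8.92, 21.1 and 13.6 CPM (1.73 ± 0.45). E2f8, a repressor of E2F targets, had 0.80 ± 0.20. The groups did not overlap in these 3 genes, and DESeq2 gave adjusted p of 0.000379, 0.00999 and 0.00465.

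Kinetochore and condensin genes outside the set were mostly positive. In the list of the inner kinetochore, Mis12 and Mis18 complexes 19 of 21 were positive (median 0.57), and 9 had separated groups against 11.3% of all genes, among them Cenph (1.26 ± 0.32), Cenpm (1.33 ± 0.45) and Cenps (0.97 ± 0.33). In the list of condensin, cohesin and separase 14 of 18 were positive (median 0.27), and the 3 with the smallest p were the condensin subunits Ncaph (1.30 ± 0.39), Smc2 (0.98 ± 0.32) and Ncapg2 (0.87 ± 0.29). Of 16 other kinesin, spindle and cytokinesis genes 13 were positive (median 0.56), with Kif15 at 1.33 ± 0.40, Kif22 at 1.16 ± 0.45 and Tacc3 at 1.08 ± 0.38. Other checkpoint genes had a median of 0.35, with Trip13, which recycles MAD2, at 1.25 ± 0.40, Zwilch at 1.04 ± 0.47 and Bub3 at 0.29 ± 0.13.

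Subunits of the anaphase-promoting complex, which many non-dividing cells also make, had small fold changes. In that list 15 of 17 were positive with a median of 0.20, and the leading gene was Fbxo5 (EMI1), an inhibitor of the complex. It was at 4.14, 4.60 and 8.54 CPM in the controls and at 10, 15.0 and 12.9 CPM in treated skin (1.13 ± 0.34). Anapc15 and Cdc26 had 0.39 ± 0.16 and 0.28 ± 0.13. Of the 3 tested centriole genes Plk4, the kinase that starts duplication, had 0.83 ± 0.29, Cenpj 0.49 ± 0.24 and Cep152 0.41 ± 0.36.

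In a list of brakes and activators of the G2 phase, which also holds the CDK-activating phosphatases Cdc25a and Cdc25b, 3 of 11 were positive, with a median of −0.19. Wee1, the kinase that inhibits CDK1, was at 137, 35.1 and 104 CPM in the controls and at 48.0, 24.3 and 19.4 CPM in treated skin (−1.59 ± 0.56, adjusted p = 0.291 by edgeR), with control 2 below osimertinib 1. Gadd45b, a stress-induced gene, was at 24.5, 24.7 and 27.3 CPM against 42.9, 38.4 and 55.6 CPM (0.84 ± 0.18). Cdkn1a, which encodes the CDK inhibitor p21, had −0.56 ± 0.37.

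The hair matrix and shaft precursor list had scores of −3.35, −0.67 and −2.87 in controls 1, 2 and 3 and 1.84, 3.15 and 1.9 in treated skin, so osimertinib 2 was highest there as in most mitotic genes, and control 3 lay between controls 1 and 2. Of its 8 genes 7 were matched, all 7 had separated groups (11.3% of all genes) and DESeq2 called 5 as higher (3.41% of all genes), and their summed share was 0.00289% to 0.00949% in controls and 0.0666% to 0.214% in treated skin. The melanocyte list had scores of −2.88, −0.71 and −2.46 in the controls and 1.65, 3.02 and 1.37 in treated skin, with osimertinib 2 again highest, and DESeq2 called 4 of its 4 tested genes as higher, against 3.41% of all genes. The bulge stem cell list had scores of 1.07, 0.27 and 1.07 against −0.63, −0.90 and −0.89. In that list Krt15 had a log2 fold change of −2.56 ± 0.75, Fgf18 −4.20 ± 0.49 and Cd34 −1.13 ± 0.31. Its other genes, Lhx2 (−0.20 ± 0.22) and Lgr5 (0.06 ± 0.28), had overlapping groups. Of 5 neutrophil genes 2 were tested, S100a8 (4.12 ± 1.5) and S100a9 (4.76 ± 1.54), which keratinocytes can also make. DESeq2 called both as higher, against 3.41% of all genes. The untested Csf3r and Cxcr2 had overlapping groups, with Cxcr2 highest in control 3 at 1.7 CPM. Ly6g, also untested, had counts in osimertinib 3 only. T cell markers took 0.000742% to 0.00336% of the count in controls and 0.000574% to 0.00107% in treated skin, and macrophage markers 0.00857% to 0.0145% and 0.00602% to 0.0151%. The part of any of these cells in the mitotic levels was not tested.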

How the data were processed

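The authors deposited 1 table with whole-number counts per gene and FPKM, a value per gene length and per depth (names per the file headers). Per the labels' protocols, libraries were polyadenylated, strand-marked with dUTP and carried molecular identifiers. Those named are the tool cutadapt 1.9 and the build GRCm38, per the submitters' processing notes. Which aligner, counter and annotation were used, and whether strand or identifiers entered the counting, was not given in the sources used here. A further 6 columns match no sample and were not used.

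Genes were kept where FPKM averaged 1 or more, and these 13498 were tested on the counts with edgeR 4.0.16 (quasi-likelihood, TMM, no covariate, two-sided, Benjamini-Hochberg over all genes, R 4.3.3). That mean is over both groups, and 41 of 42 genes of the set passed it. DESeq2 1.42.0, limma 3.58.1 on FPKM, other scalings and filters, a muscle covariate and leaving out each library were alternatives. SE is the log2 fold change over the square root of F. Fits were tested on simulated data.

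The genes and lists were chosen with earlier results of these data known. Values per library are given for up to 3 genes of each role with the smallest p and for Mki67, Top2a, Cdk1, Ccnb1, Foxm1 and Aurkb, and up to 3 genes are named per pathway list. A gene that this rule named in the replication list is not reported here. Knl1, Hmmr, Ttk and Prc1 were added after their values were seen, and the scale relative to the basal keratinocyte list was also chosen then. Promoter sequences are from RefSeq, GRCm38.p6. Of 42 genes, 39 had the same start and end in GENCODE mouse release 21. A count of 0 would allow 3 counts, or 0.0467 to 0.0663 CPM, which covers counting error only. With 3 against 3 samples the smallest exact p of a single value is 0.1.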

Additional observations from a re-analysis of the deposited data

How the results depend on the processing

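The median of the set was above 0 in every fit run, and no fit other than DESeq2, which called 1 gene of the set, called any. Over all genes 1 was called by edgeR, 0 with the legacy fit, 2 where FPKM averaged 5 or more, 17 and 2 by limma on log2(FPKM + 1) and log2(FPKM + 0.1), and 858 by DESeq2, which also called 23 pathway genes. Leaving out each library gave 0 to 1. The median log2 fold change of the set ranged from 0.57 to 1.37 when each library was left out (lowest without control 1, highest without control 3), and was 1.28 with the muscle covariate and 1.63 relative to the basal keratinocyte list. The number of genes with separated groups was 5 with upper-quartile scaling, 2 where FPKM averaged 5 or more (19 genes tested), 3 on either FPKM scale, 6 to 38 when each library was left out (20 without osimertinib 1) and 36 relative to the basal list. Over all genes the separated share was 23.0% without control 2, where the set had 6 of 41, 19.3% without control 3, 15.0% without osimertinib 1 and 11% to 11.6% under upper-quartile scaling, the FPKM scales and the higher filter. The log2 fold change changed sign in 5 genes. Prc1 was at 0.09 and 0.18 by limma, 0.50 with the muscle covariate, 0.10 with the replicate block and 0.83 relative to the basal list, and ran from −0.41 to 0.52 without each library. Pttg1 was at 0.57 relative to the basal list and from −0.46 to 0.15, Hmmr from −0.14 to 0.72 and Ttk from −0.29 to 0.30, without each library. Cdkn1a was at 0.23 relative to the basal list. The cause of these changes was not tested. Of 1250 values of single genes under alternatives, 1225 kept both their direction and their side of the threshold. The deviations of same-numbered samples from their group means had correlations of 0.222, 0.0294 and −0.115. With 3 samples per group these values cannot tell whether the numbers pair the samples. With the replicate block the median was 0.92, and 14 of 41 genes had an unadjusted p under 0.05, against 8 without the block (6.13% and 7.47% of all genes). Not every sample correlated best with its own number.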
